A study of Homo sapiens with 3 samples.

Results

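Reproducible outside summits are narrow peaks of short nascent strand sequencing (SNS-seq) that recurred between replicates at places where the broad caller found no enriched region. They were chosen by position alone: a MACS2 summit of replicate 1 on chromosomes 1 to 22 was taken when it lay in no EPIC2 region of any of the 3 replicates and when a MACS2 summit of replicate 2 or replicate 3 lay within 100 bases of it. This gave 7561 summits of the 215368 that replicate 1 had on these chromosomes. They made up 10.2% of its 74462 summits outside all EPIC2 regions. Every number that follows describes the calls that selected these summits, so no test is given for any of them.

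The study mapped replication origins in HCT116 cells, a human line established from a colorectal carcinoma, grown in RPMI medium and left untreated. All 3 replicates formed 1 group described in the labels as untreated and prepared by the lambda exonuclease strategy, so no conditions could be compared. Each replicate had a list of single-base MACS2 summits and a list of EPIC2 regions in hg19 coordinates. Only called positions are listed, so the read depth behind each replicate is unknown.

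DNA replication of human cells starts at a large number of origins, where the origin recognition complex loads the MCM helicase in G1 and a part of the loaded sites fires in S phase. Each new strand starts with a short RNA primer, and this RNA protects the 5′ end from lambda exonuclease, which digests broken DNA of the same size. Sequencing of the strands that survive therefore marks places where synthesis has just begun. MACS2 looks for narrow local peaks and reports the base of highest signal as a summit, whereas EPIC2 joins neighbouring enriched windows into diffuse regions, the form expected of zones in which initiation is spread over several sites. Summits outside every EPIC2 region are therefore narrow calls without a broad call around them.

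The replicates differed in how much was called. On chromosomes 1 to 22, replicate 1 had 215368 summits, replicate 2 had 62131 and replicate 3 had 161271. Their EPIC2 regions covered 264 Mb, 137 Mb and 323 Mb in the same order. Merged over the replicates they covered 491 Mb, which is 18.0% of the 2725 Mb of 1 Mb windows that held a call. Outside all regions lay 34.6% of the summits of replicate 1, 32.0% of those of replicate 2 and 45.04% of those of replicate 3. Hence narrow calls without a broad call in any library were similar in share in replicates 1 and 2 and commoner in replicate 3.

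Matching was rarer outside EPIC2 regions than inside them. A partner in replicate 2 or 3 was found for 10.2% of the outside summits, with a Wilson 95% confidence interval of 9.94% to 10.4%. Of the 140906 summits inside regions, 30492 had a partner, or 21.6% with an interval of 21.4% to 21.9%. Over all summits of replicate 1 the share was 17.7%. The interval covers counting error only and does not include the spread between libraries. Since the rule uses the presence of a partner and the region calls, these shares are a description. The reproducible outside summits were 19.9% of the 38053 matched summits found anywhere, while outside summits made up 34.6% of all summits.

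The number was set beside the number that summit density alone gave. For this, the partner summits were displaced in a circle along each chromosome in 100 even steps, and matches were counted again after each step. Displaced partners matched between 1004 and 1221 outside summits, with a mean of 1117.5, or 1.501%. The observed 7561 were 6.77 times that mean. Displacement of the partners by only 5 to 50 kb in either direction keeps the density of calls on that scale. It gave a mean of 1220 matches, with a lowest of 1187 and a highest of 1296. Partners inside and outside regions were displaced together, so both levels mix the 2 places. The observed number was 6.20 times this local level, so both levels were close for the outside summits. Inside regions the observed number was 13.1 times the circular level and 8.87 times the local level.

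The comparison with the inside summits came out differently for each partner replicate. Replicate 2 had a summit near 3189 outside summits, or 4.28% with an interval of 4.14% to 4.43%. Inside regions it had one near 14.2%. The outside number was 10.1 times the circular level and the inside number 29.7 times. With local displacement, these ratios were 9.88 and 20.2. The order was reversed against the density of replicate 2 at 750 to 1000 bases from the summits. Its density within 25 bases was 48.5 times that level outside and 30.0 times inside. Replicate 3 had a summit near 4629 outside summits, or 6.22% with an interval of 6.05% to 6.39%. Inside regions the share was 8.80%. The outside number was 5.61 times the circular level and the inside number 7.31 times. With local displacement the ratios were 5.02 outside and 4.93 inside. Against displacement by 5 to 50 kb, replicate 3 thus matched both kinds of summits about as far above the displaced level. Against its density at 750 to 1000 bases, its density within 25 bases was 12.4 times outside and 4.97 times inside. Which place stood further above its surroundings thus depended on the scale of the comparison.

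Which replicate provided the partner also differed between both places. Outside regions, 2932 summits had a partner in replicate 2 alone (38.8%), 4372 in replicate 3 alone (57.8%) and 257 in both (3.40%). Inside regions, replicate 2 alone provided 59.4% and replicate 3 alone 34.3%, and both provided 6.35%. Replicate 3 was thus the commoner source outside and replicate 2 the commoner source inside. The supply of possible partners was also unequal. Outside regions replicate 3 had 72641 summits and replicate 2 had 19908, and inside they had 88630 and 42223. An outside summit with a partner in replicate 2 had 1 in replicate 3 as well in 8.06% of cases. Without a partner in replicate 2, the share with a partner in replicate 3 was 6.13%, a ratio of 1.31. Inside regions the same ratio was 1.12. A partner in 1 replicate was therefore accompanied only slightly more often by a partner in the other.

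No partner was shared between reproducible outside summits. Each of the 3189 nearest partners in replicate 2 and the 4629 in replicate 3 belonged to 1 of these summits only. The spacing fixed this in advance, since the smallest gap between these summits was 995 bases and partners lay within 100 bases. Since the window reaches across region edges, a partner could lie inside a region, and this was the case for 21 partners in replicate 2 and 10 in replicate 3.

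Partner positions clustered around the summits of replicate 1. Around outside summits, replicate 2 had 339 summits per base (scaled to 1000000 summits of replicate 1) at a distance of 0 to 25 bases. This density fell to 215 at 25 to 50 bases, 162 at 50 to 75 and 133 at 75 to 100. It went on falling beyond the match window, to 63.1 at 175 to 200 bases and 6.98 at 750 to 1000 bases. The density nearest the summit was thus 48.5 times that at 750 to 1000 bases. Around inside summits the nearest density was higher, at 1212, and was 30.0 times that at 750 to 1000 bases. Replicate 2 therefore had a single maximum at the summit in both places, lower outside than inside.

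Replicate 3 showed a further maximum to the side. Around outside summits its density was 379 at 0 to 25 bases and fell to 277 at 50 to 75 bases. It then rose to 399 at 125 to 150 bases, above the value at the summit itself, and was still 346 at 175 to 200 bases. Beyond that it declined to 83.0 at 300 to 400 bases and 30.7 at 750 to 1000 bases. Around inside summits the course was the same in shape, with 550 at 0 to 25 bases, 384 at 50 to 75 and 536 at 125 to 150. The side maximum was not seen when replicate 3 was set around the outside summits of replicate 2, where the density was 314 at 0 to 25 bases, 209 at 75 to 100 and 187 at 125 to 150. Around the inside summits of replicate 2 the density rose slightly, with 530 at 0 to 25 bases, 362 at 100 to 125 and 398 at 125 to 150. The side maximum lies past the window of 100 bases, so summits of replicate 3 at that distance were not counted as partners. What gives rise to it was not tested.

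**Figure D1:**
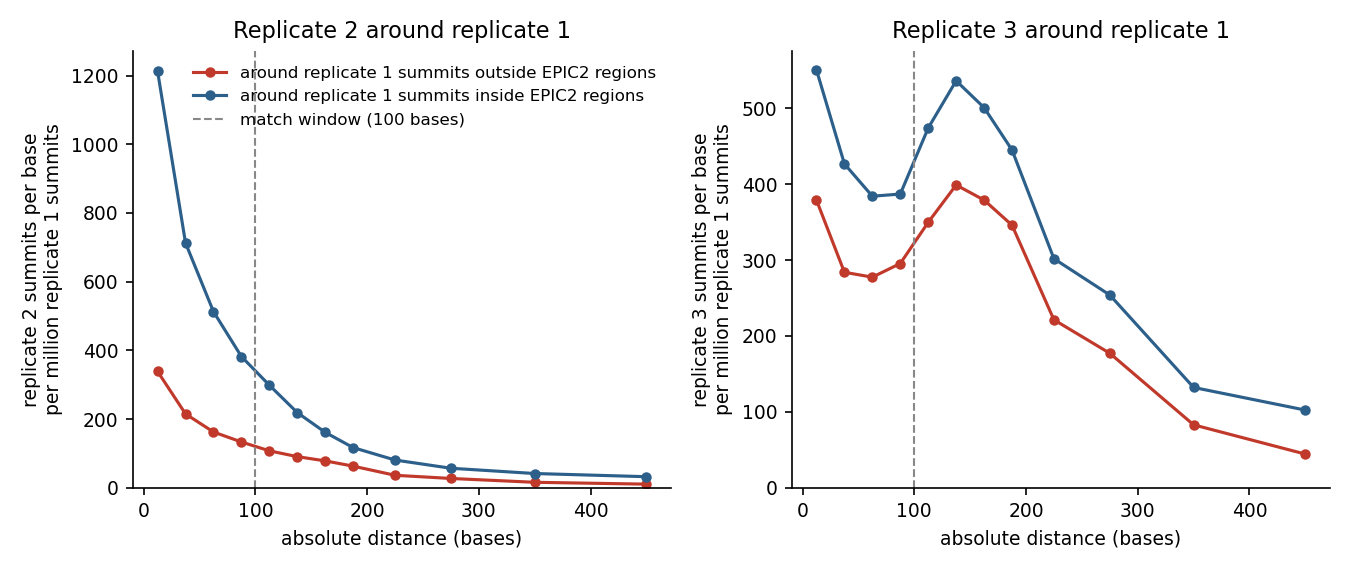
Density of the summits of replicate 2 (left) and replicate 3 (right) against the absolute distance in bases from the summits of replicate 1, in summits per base scaled to 1000000 summits of replicate 1, outside EPIC2 regions (red) and inside them (blue); the dashed line marks the match window. Around outside summits replicate 2 falls from 339 to 133 within the window, whereas replicate 3 has a second maximum of 399 at 125 to 150 bases.

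Within the window, matched pairs were close. The median distance between an outside summit and its nearest partner was 34 bases for replicate 2 and 45 bases for replicate 3. For inside summits the medians were 32 and 44 bases. Partners on the very same base were rare outside, with 32 in replicate 2 (1.00%) and 31 in replicate 3 (0.670%), and inside regions the shares were 1.84% and 0.896%. Partners within 10 bases made up 19.7% of the outside pairs with replicate 2, against 24.1% inside. For replicate 3 they made up 14.3% outside and 14.8% inside. Pairs with replicate 2 were therefore tighter than those with replicate 3 in both places. Partners lay on both sides in nearly equal number, with 1553 at a higher and 1604 at a lower coordinate in replicate 2 and 2309 against 2289 in replicate 3.

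Summits just inside and just outside the window had the same median score. The 619 outside summits whose nearest partner lay at 91 to 100 bases had a median score of 4.03, and so had the 638 whose nearest partner lay at 101 to 110 bases. At the other edge of the rule, 82 reproducible summits lay 1 to 200 bases outside a region, with a median score of 5.24. Within 200 bases inside a region edge, 5242 matched summits had a median of 9.77. The median score thus differed across the region edge and not across the limit of the window. Regions and scores were called from the same libraries, so the step at the region edge is no separate result. It also rests on only 82 summits on the outer side.

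The MACS2 score of a summit is −log10 of the q-value of its peak, so a score of 1 is the authors' threshold q of 0.1. Reproducible outside summits had a median score of 4.03 in replicate 1, with quartiles of 2.74 and 5.46 and a range from 1.03 to 47.5. This median lay at percentile 38.4 of all summits of replicate 1. Outside summits without a partner had a median of 3.37, at percentile 28.4. Matched summits inside regions had a median of 8.67, at percentile 78.7. Inside summits without a partner had a median of 5.65, at percentile 58.6. Reproducible outside summits were thus above the unmatched summits around them and below even the unmatched summits inside regions.

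High scores were rare among them. A score of 10 or more was found in 102 reproducible outside summits, or 1.35%, against 42.1% of the matched inside summits. A score of 20 or more was found in 3 of them. The highest score of any outside summit, 105, belonged to a summit without a partner. Among matched inside summits the highest was 1305. An outside summit therefore did not need a partner to score high, and few of the reproducible ones did.

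The scores of the partners were also low in replicate 2 and nearer to the middle in replicate 3. In replicate 2, the partners of reproducible outside summits had a median score of 2.89, at percentile 42.4 of that replicate, and a highest score of 32.0. Partners of inside summits in replicate 2 had a median of 5.28, at percentile 70.1. In replicate 3, the partners had a median of 4.01, at percentile 51.3, and a highest score of 64.6. Partners of inside summits in replicate 3 had a median of 4.47, at percentile 58.7. The step between outside and inside was thus large in replicates 1 and 2 and small in replicate 3.

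Scores of both summits of a pair were weakly related. Over the 3189 outside pairs with replicate 2, Spearman's rho was 0.14, against 0.34 over the 20035 inside pairs. Over the 4629 outside pairs with replicate 3, rho was 0.06, and over the 12393 inside pairs it was 0.04. These values are descriptions across pairs from the same 3 libraries, and the pairs are not independent replicates. With replicate 3, the height of a summit in 1 library said next to nothing about its height in the other, inside or outside.

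The share of summits with a partner rose with the score in replicate 1, outside as inside. Among outside summits it was 6.73% at scores of 1 to 2, 9.49% at 3 to 4, 11.7% at 5 to 6 and 18.1% at 8 to 10. At 10 to 15 it was 20.3%, from 85 of 419 summits. Inside regions the shares were 10.4%, 13.4%, 16.7%, 23.8% and 29.4% in the same classes. At equal scores below 15, outside summits were therefore matched less often than inside summits in each of the 8 classes. In the class of 15 and more, 17 of 28 outside summits had a partner, or 60.7% with an interval of 42.4% to 76.4%, which includes the 49.3% found inside.

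Scores differed between both places, so the inside share was also weighted to the score classes of the outside summits. This changed it from 21.6% to 14.5%. The ratio of inside to outside fell from 2.13 to 1.43. Part of the difference between the 2 shares thus went with the score, and a difference of 1.43 times remained at equal score. Scores under 10 were found in 99.4% of outside and 75.6% of inside summits.

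The rise with score was carried mainly by replicate 2. The share of outside summits with a partner in replicate 2 went from 1.89% at scores of 1 to 2 to 10.8% at 8 to 10 and 15.8% at 10 to 15. The share with a partner in replicate 3 went from 4.93% at 1 to 2 to 8.49% at 8 to 10 and was 6.44% at 10 to 15. At low scores replicate 3 was the commoner partner, and at scores of 8 to 15 replicate 2 was.

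**Figure D2:**
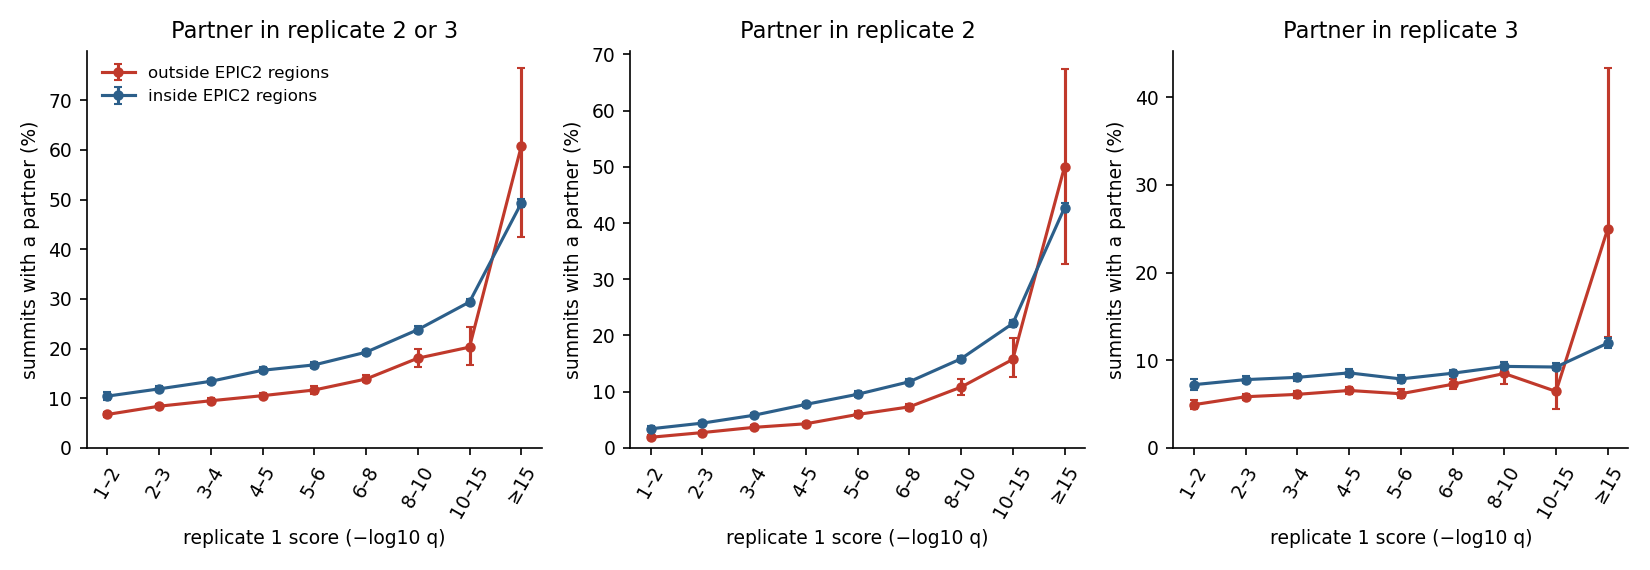
Share of replicate 1 summits with a partner (percent) against the MACS2 score of replicate 1 in 9 classes, for a partner in replicate 2 or 3 (left), in replicate 2 (middle) and in replicate 3 (right), outside EPIC2 regions (red) and inside them (blue); bars are Wilson 95% intervals. Outside summits lie below inside summits in each class under a score of 15 in the left panel, rising from 6.73% to 20.3%, and the wide interval at 15 and more rests on 28 summits.

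Distance to the nearest EPIC2 region of any replicate was measured for each summit. Reproducible outside summits lay at a median of 9395 bases from a region, with quartiles of 4188 and 22930 bases and a range from 3 to 409223 bases. Unmatched outside summits lay at a median of 8580 bases, with quartiles of 3536 and 22453. Both spreads overlapped almost fully. The difference of the medians, 815 bases, had no stable direction, since it was -702.5 bases without replicate 1, 303.5 without replicate 2 and 2189.5 without replicate 3. Within 1 kb of a region lay 2.79% of the reproducible and 4.57% of the unmatched summits. Beyond 10 kb lay 47.9% and 45.7%, and beyond 50 kb 10.3% and 10.4%. Few reproducible outside summits were thus fringes of a called region, and 238 of them lay beyond 100 kb.

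The nearest region was most often one of replicate 1. It belonged to replicate 1 for 55.9% of the reproducible outside summits, to replicate 2 for 18.1% and to replicate 3 for 29.8%, with ties counted for each. Median distances to the regions of single replicates were 13721 bases for replicate 1, 39727 for replicate 2 and 25867 for replicate 3. No replicate had a region within 10 kb of 47.9% of these summits, and all 3 had one within 10 kb of 6.89%. The order follows the number of regions, of which replicate 1 had 123901, replicate 3 had 78782 and replicate 2 had 44289.

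Distance made a modest difference to matching. The share of outside summits with a partner was 6.75% (interval 5.47% to 8.31%) within 0.2 kb of a region and 6.29% (5.32% to 7.42%) at 0.2 to 1 kb. It was 8.84% at 1 to 2 kb, 9.84% at 2 to 5 kb and 10.9% at 5 to 10 kb. From there it stayed between 9.73% and 10.9% up to the class beyond 100 kb. Matching was thus lowest right beside the regions.

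The level given by local displacement went the other way. It was 1.96% within 0.2 kb of a region and 2.41% at 2 to 5 kb, and it fell to 1.34% at 10 to 20 kb, 0.645% at 50 to 100 kb and 0.552% beyond 100 kb. The observed share was 3.45 times the local level within 0.2 kb and 2.65 times at 0.2 to 1 kb. It was 5.85 times at 5 to 10 kb, 11.5 times at 20 to 50 kb and 17.6 times beyond 100 kb. Against circular displacement, which hardly varied with distance, the ratio lay between 4.02 and 7.31 in all classes. Summits far from any region thus matched at the usual share in surroundings with few calls.

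The 2 partner replicates differed in this respect. With replicate 2 the share was 3.95% within 0.2 kb and 2.83% at 0.2 to 1 kb, and it was then higher at 4.90% at 20 to 50 kb and 4.86% beyond 100 kb. With replicate 3 it was 2.88% within 0.2 kb, 3.61% at 0.2 to 1 kb, 6.94% at 5 to 10 kb and 5.19% beyond 100 kb.

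**Figure D3:**
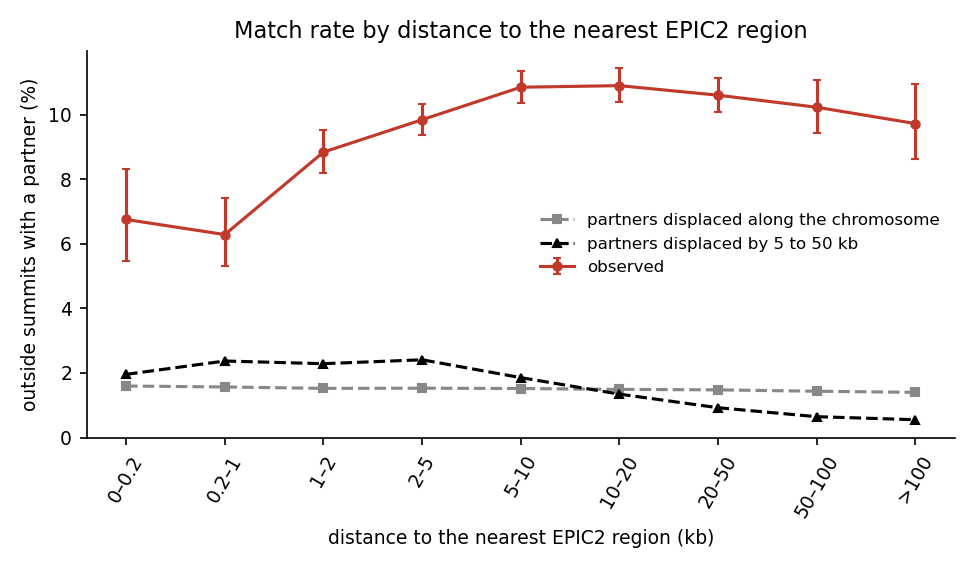
Share of outside summits of replicate 1 with a partner in replicate 2 or 3 (percent) by distance to the nearest EPIC2 region in kb (red, with Wilson 95% intervals), beside the share after circular displacement of the partners (grey squares) and after displacement by 5 to 50 kb (black triangles). The observed share is between 9.73% and 10.9% from 5 kb outwards, while the local level falls from 2.41% at 2 to 5 kb to 0.552% beyond 100 kb.

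Reproducible outside summits were found on all 22 chromosomes, at 2.77 per Mb of windows with calls. Chromosome 13 had the highest density, 3.62 per Mb from 351 summits, and chromosome 17 the lowest, 1.54 per Mb from 123. Chromosome 19 was next to lowest with 92, or 1.59 per Mb. The highest density was 2.35 times the lowest. Chromosome 13 is known as poor in genes and chromosomes 17 and 19 as rich in genes.

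Chromosome 13 was densest, and chromosomes 17 and 19 were the least dense, with each replicate as the source of the summits. Density was taken relative to all 22 chromosomes as a whole. On chromosome 13 it was 1.30 with replicate 1 as the source, 1.27 with replicate 2 and 1.29 with replicate 3, a mean of 1.29 ± 0.0154 (SD, n = 3). Chromosome 17 was at 0.554, 0.569 and 0.555, a mean of 0.560 ± 0.00846 (SD, n = 3). Chromosome 19 was at 0.572, 0.654 and 0.542, a mean of 0.589 ± 0.0582 (SD, n = 3), so it was below chromosome 17 with replicate 3 as the source and above it with the other two. These 3 values share pairs of libraries and are not independent, so the SD is a narrow measure of error. Over the 22 chromosomes, the SD of the mean relative density was 0.174, and the median SD over the 3 sources was 0.0334. Chromosomes 13 and 17 therefore stood apart by more than the choice of the source replicate moved them. Leaving out replicate 1, 2 or 3 altogether gave 1.08, 1.29 and 1.21 for chromosome 13, a larger shift. For chromosome 17 it gave 0.662, 0.553 and 0.568.

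Matched summits inside regions ran in the opposite order. Their relative density was 2.36 ± 0.0260 (SD, n = 3) on chromosome 17 and 0.656 ± 0.0472 (SD, n = 3) on chromosome 13. On chromosome 19 it was 2.19 ± 0.574 (SD, n = 3). Per Mb it ran from 6.62 on chromosome 4 to 26.1 on chromosome 17, a ratio of 3.94. Over the 22 chromosomes, Spearman's rho between the reproducible outside summits per Mb and the matched inside summits per Mb was -0.77, and without chromosomes 17 and 19 it was -0.70 over 20. As a description, chromosomes with more matched inside summits had fewer reproducible outside summits, from the same 3 libraries and the same region calls.

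Chromosomes lay closer together once the span inside regions was left out. EPIC2 regions covered 51.1% of the span of chromosome 17, 50.2% of chromosome 19 and 8.49% of chromosome 13. Per Mb of span outside regions, reproducible outside summits ran from 2.76 on chromosome 21 to 3.95 on chromosome 13, a ratio of 1.43. Chromosome 17 then had 3.15 per Mb and chromosome 19 had 3.19, against 3.39 over all chromosomes. Spearman's rho with the matched inside summits per Mb was -0.22 on this scale, and -0.12 without chromosomes 17 and 19. Chromosome 13 remained the highest.

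The share of outside summits with a partner varied little between chromosomes. It ran from 8.91% on chromosome 21 (interval 7.32% to 10.8%) to 11.8% on chromosome 13 (interval 10.7% to 13.04%). Inside regions it ran from 20.2% to 23.5%. Hence on each chromosome summits inside regions were matched more often than summits outside, and the spread of both shares over chromosomes was small beside the gap between them.

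**Figure D4:**
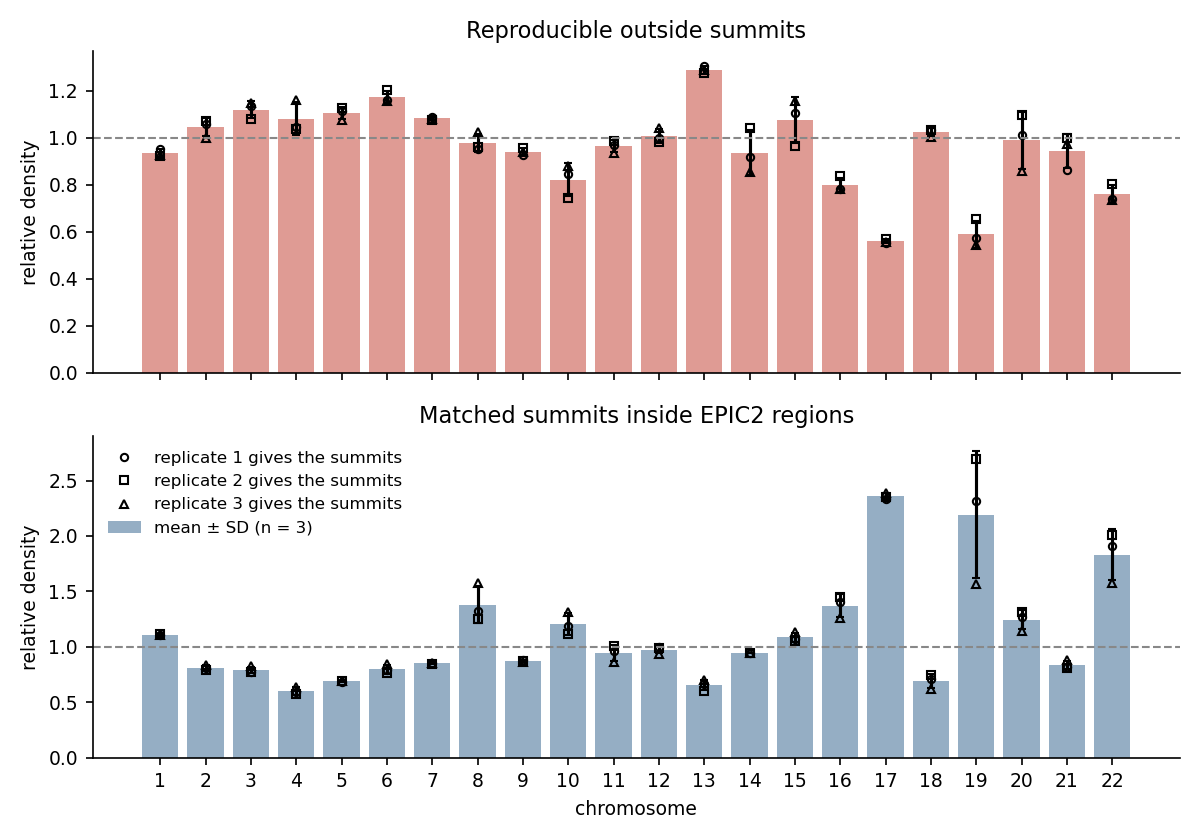
Density per Mb relative to chromosomes 1 to 22 as a whole (dashed line at 1.0), by chromosome, for reproducible outside summits (top) and matched summits inside EPIC2 regions (bottom); bars with error bars are the mean ± SD over the 3 replicates used in turn as the source of the summits, and symbols are the single values. Chromosome 13 is highest in the top panel at 1.29 and chromosome 17 lowest at 0.560, whereas chromosome 17 is highest in the bottom panel at 2.36.

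Reproducible outside summits were spread thinly along the chromosomes. The median gap between neighbours was 218048 bases, with quartiles of 85940 and 453086. Matched inside summits had a median gap of 37222 bases, all outside summits one of 21690 bases and all inside summits one of 7490 bases. Gaps within 10 kb numbered 211 among the reproducible outside summits, or 2.80%, against 16.2% among the matched inside summits. There was a single gap within 1 kb, of 995 bases. The reproducible outside summits were thus seldom within 10 kb of each other. These gaps leave out all other calls, and they widen as fewer summits are counted.

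Unmatched outside summits lay about as close to them as they lay to each other. The nearest other reproducible outside summit lay at a median of 107307 bases from a reproducible one and of 108265 bases from an unmatched one. Within 10 kb lay 5.50% and 6.24% of them. A matched summit thus did not have a matched neighbour more often than an unmatched summit had.

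Most windows of 1 Mb held some of them. Of 2725 windows with calls, 2389 held at least 1 reproducible outside summit, or 87.7%. The mean was 2.77 per window, the median 3 and the highest 12. The variance was 1.42 times the mean. For all outside summits the ratio was 4.54 and for matched inside summits it was 8.64, with up to 60 in a window. The ratio also falls with the number per window, so these 3 values are not on an equal footing.

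Windows rich in matched inside summits held few reproducible outside summits. The 300 windows with the most matched inside summits held 31.6% of those and 5.01% of the reproducible outside summits, at 1.26 per window. The 90 windows without a matched inside summit held 164 reproducible outside summits, or 1.82 per window. Between these ends the number was highest, with 3.47 per window where 6 to 10 matched inside summits lay. With 41 or more, in 37 windows, it was 0.432. The number therefore rose and then fell along this scale.

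The share of outside summits with a partner did not follow that curve. It lay between 9.19% and 10.7% in all 7 classes of windows. The number of reproducible outside summits followed the number of all outside summits in a window, with a Spearman's rho of 0.59 over the 2725 windows, and it was unrelated in rank to that of matched inside summits, with a rho of -0.06. Windows of 1 chromosome share libraries and region calls, and all of the former are among the outside summits by definition, so these values describe and do not test.

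**Figure D5:**
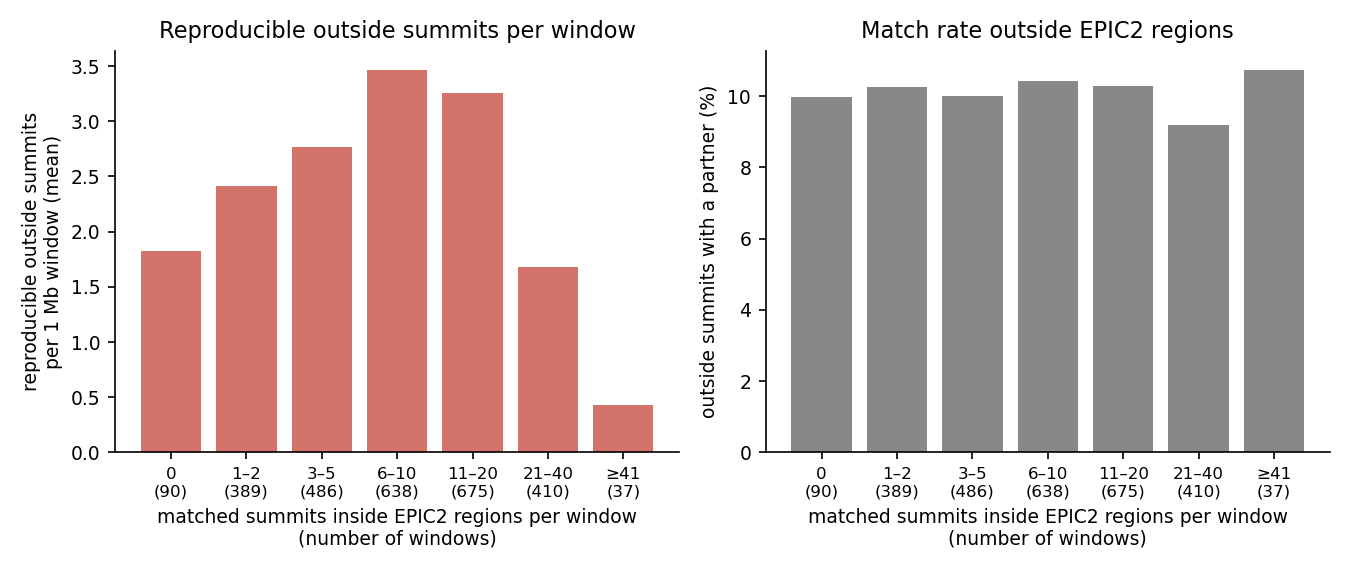
Mean number of reproducible outside summits per 1 Mb window (left) and share of outside summits with a partner in percent (right), by the number of matched summits inside EPIC2 regions in the window, with the number of windows in brackets. The number peaks at 3.47 per window with 6 to 10 matched inside summits and is 0.432 with 41 or more, while the share stays between 9.19% and 10.7%.

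The windows with the most reproducible outside summits had few to moderate numbers of matched inside summits. The window chr7:26000001-27000000 held 12 reproducible outside summits, of 58 outside summits, and 11 matched inside summits. The window chr7:67000001-68000000 held 11 of 64, with 4 matched inside summits. Each of 4 further windows held 10, and they tied for the next rank: chr2:68000001-69000000, chr4:173000001-174000000, chr13:65000001-66000000 and chr16:47000001-48000000. They had 39, 37, 31 and 42 outside summits and 7, 6, 2 and 9 matched inside summits in that order. All 6 windows were thus below the mean of 11.2 matched inside summits per window, and those with 11 and 9 were above the median of 8. All 6 were above the mean of 27.3 outside summits per window. Over all windows 10.2% of outside summits had a partner. The share was higher in these 6, which were picked for a high number of matched outside summits. Coordinates are those of hg19, and the genes and sequences in these windows were not analysed here.

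All 3 replicates had a summit at 257 of the reproducible outside summits. Displaced partners gave between 10 and 34 such triples, with a mean of 22.2, so the observed number was 11.6 times that level. Both partner replicates were displaced at once, so this ratio also holds the excess of each partner alone. An outside summit had a partner in replicate 3 in 8.06% of cases with a partner in replicate 2 and in 6.13% without, a ratio of only 1.31. The triples had median scores of 5.23, 2.89 and 4.71 in replicates 1, 2 and 3. Their median distance to a region was 11669 bases. Those found in 3 replicates thus scored higher in replicate 1 than the 7561 as a whole, with a median of 5.23 against 4.03, and lay somewhat further from regions. Over the 257, the scores of the partners in replicates 2 and 3 were unrelated in rank, with a Spearman's rho of -0.06.

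By mean score percentile over the replicates, the highest of these triples was at chr4:49155247. It scored 47.5 in replicate 1, 26.5 in replicate 2 and 44.9 in replicate 3, with the partners at +16 and +11 bases, and lay 2447 bases from a region. The next, at chr16:46403695, scored 15.5, 32.0 and 64.6, with partners at +1 and -64 bases. It lay 11695 bases from a region. The next after these, chr2:92320143, had scores of 7.18, 18.5 and 18.6 and partners at +1 and -1 bases. It lay 3743 bases from a region. All 3 positions had high scores in replicates 2 and 3 with no broad call over the summit. All 3 also lay within 1 Mb of a window in which no replicate had a call.

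The fourth, at chr10:42369312, scored 10.3, 8.85 and 10.3, and its partners lay at +84 and +81 bases, so replicates 2 and 3 were nearer to each other than to replicate 1. The fifth, at chr20:17090999, scored 11.3, 4.48 and 8.91. These first 4 positions lay at 0.845, 0.404, 0.680 and 0.369 Mb from a 1 Mb window in which no replicate had a call, while the fifth lay at 9.91 Mb. Over all reproducible outside summits, 53 or 0.701% lay within 1 Mb of such a window, against 0.567% of the matched inside summits. Among the 102 with a score of 10 or more the number was 5, or 4.90%. The part that the proximity to windows without calls had in these scores was not tested.

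The scores of the 3 triples farthest from any region ranged from percentile 9.61 to percentile 97.4 of their replicates. At chr2:179513335, 158935 bases from the nearest region, the scores were 5.46, 2.19 and 11.1, and the partners lay at -86 and -83 bases. At chr9:106122162, at a distance of 124962 bases, they were 8.67, 2.89 and 3.40. At chr1:158303223, at 123023 bases, they were 2.15, 2.19 and 3.92. Each of these 3 positions was called by MACS2 in all replicates with no broad call of any replicate within 100 kb.

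The choice of replicate 1 as the source was varied to gauge the spread between replicates. With replicate 2 as the source, 3949 summits met the rule, and with replicate 3 it was 5460, a mean of 5657 ± 1814 (SD, n = 3) with replicate 1 included. The share of outside summits with a partner was 10.2%, 19.8% and 7.52% for replicates 1, 2 and 3, a mean of 12.5% ± 6.49 (SD, n = 3). Inside regions it was 21.6%, 51.3% and 15.9%, a mean of 29.6% ± 18.99 (SD, n = 3). Both shares were highest with replicate 2, which had the fewest summits of its own, and lowest with replicate 3.

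Ratios were steadier than the shares. The inside share was 2.13, 2.59 and 2.12 times the outside share, a mean of 2.28 ± 0.267 (SD, n = 3), and was higher inside with each replicate as the source. The outside number was 6.77, 8.07 and 4.27 times the displaced level, a mean of 6.37 ± 1.93 (SD, n = 3). The inside number was 13.1, 18.9 and 8.19 times that level, a mean of 13.4 ± 5.35 (SD, n = 3). With replicate 3 as the source both ratios were lowest.

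The score step varied most. Relative to matched inside summits, the median score percentile of reproducible outside summits differed by -40.3, -26.0 and -6.22 points with replicates 1, 2 and 3 as the source, a mean of -24.2 ± 17.1 (SD, n = 3). Relative to unmatched outside summits it differed by 10.01, 15.8 and 7.75 points, a mean of 11.2 ± 4.13 (SD, n = 3). Both signs were the same with each replicate, and the size of the first differed several-fold. Median distance to a region was 9395, 9936 and 8694.5 bases, a mean of 9342 ± 622 (SD, n = 3).

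Pairs of replicates show where the matches came from. Of the 19908 outside summits of replicate 2, 3212 had a partner in replicate 1, or 16.1%, and 1002 had one in replicate 3, or 5.03%. Of the 72641 outside summits of replicate 3, 4699 had a partner in replicate 1, or 6.47%, and 1010 had one in replicate 2, or 1.39%. In number, replicates 2 and 3 thus shared the fewest outside summits. Inside regions the same pair was lowest too, with 8.59% of the summits of replicate 2 and 4.08% of those of replicate 3. Both had fewer summits than replicate 1, which lowers these counts. With the third replicate and its regions left out, outside matches were 5.25 times the displaced level for replicates 2 and 3. This ratio was 5.55 for replicates 1 and 3 and 9.77 for replicates 1 and 2. Inside regions the ratios were 7.11, 7.38 and 31.6 in the same order.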

How the data were processed

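SNS-seq calls of 3 replicates of untreated HCT116 cells were used. Per the paper's methods and the submitters' processing notes, the authors mapped reads with Bowtie2 2.3.4.2 (hg19), filtered duplicates with Picard 2.18.17 and ran MACS2 2.1.0.20151222 (narrow peaks) and EPIC2 (diffuse regions) on each replicate. A control library for these calls is not named. As origins, the authors kept only MACS2 peaks that overlapped an EPIC2 peak and were found in more than 1 of the 3 replicates. The reproducible outside summits lack an EPIC2 region at the summit base, so they should not be read as the study's set of origins. The deposited MACS2 summits carry a score read as −log10 of the q-value, with a threshold q of 0.1. The deposited EPIC2 lists carry 1 score per region, of a kind not stated, which was not used. Summits are single bases, and regions follow a grid of 200 bases.

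From these lists, summits of replicate 1 on chromosomes 1 to 22 were placed inside or outside the merged regions of all replicates and matched within 100 bases. Levels from density came from 100 circular and 8 local displacements of the partner summits. Intervals are Wilson 95% intervals. Densities refer to 1 Mb windows with a call in any replicate. The summits and the rules were chosen with earlier results of these data known. Named positions were the 5 triples with the highest mean score percentile and the 3 farthest from a region, each at least 1 Mb apart, the 3 densest windows with ties, and the chromosomes with the highest and lowest density. Chromosomes 4, 19 and 21 were named after their values were seen. Alternatives covered the window, the score, the margin to regions, each replicate left out or used as the source, and the displacement. The matching functions were tested on simulated positions. The reference at hand is GRCh38, so coordinates were left in hg19 and no gene, annotation or sequence was read. Computation used Python 3.11.15, numpy 2.4.6 and scipy 1.17.1. The paper describes the replicates as triplicate experiments and its experiments in general as independently repeated. Separate cultures are not named for these 3 libraries, so the spread between them may be technical in part.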

Additional observations from a re-analysis of the deposited data

Results flagged for a closer look

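Chromosome X lies outside the rule, which covers chromosomes 1 to 22, and showed summits that would have met it. Replicate 1 had 1995 summits outside all EPIC2 regions there, or 75.2% of its 2652 summits on this chromosome. Of these, 110 had a partner in replicate 2 or 3 within 100 bases, or 5.51% with a Wilson 95% interval of 4.60% to 6.60%. Circular displacement gave a mean of 3.65 matches and at most 11, so the observed number was 30.1 times the displaced mean. The 110 had a median score of 4.13. Replicates 2 and 3 had 775 and 705 summits on this chromosome, so few partners were at hand.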

How the results depend on the processing

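No paired analysis was possible because all replicates belong to 1 group. Against the values of the report, the number of reproducible outside summits moved from 7561 to 4486 with a window of 50 bases, 13864 with 200 bases and 3949 with replicate 2 as the source, and leaving out a replicate gave 1594 (without replicate 1) to 4806 (without replicate 2), with 3599 without replicate 3. The ratio of inside to outside shares became 1.79 with 200 bases and 2.59 with replicate 2 as the source, and 1.44 (without replicate 2), 1.49 (without replicate 1) or 3.63 (without replicate 3) on leaving out a replicate. The observed number over the displaced level was 4.27 with replicate 3 as the source and 5.25 to 9.77 on leaving out a replicate, highest without replicate 3. The score step to matched inside summits was -6.22 percentile points with replicate 3 as the source and -37.5 to -21.3 on leaving out a replicate. The relative density of chromosome 13 was 1.25 with 200 bases, 1.27 and 1.29 with replicates 2 and 3 as the source, 1.16 as a share of outside summits and 1.08 to 1.29 on leaving out a replicate. As a share of outside summits, chromosome 17 moved from 0.554 to 0.958. The median gap was 374726 bases with a window of 50 bases, 434149 with replicate 2 as the source and 339088 to 1066437.5 on leaving out a replicate. Median distance to a region was 8694.5 bases with replicate 3 as the source, 13721 to regions of replicate 1 alone and 9772.5 to 13744.5 on leaving out a replicate. The difference in that distance to unmatched outside summits, 815 bases, turned to -702.5 without replicate 1 and was 2189.5 without replicate 3. The alternatives without replicate 1 were chosen after seeing the data. Among the other 39 alternatives of these 7 results, the 5460 summits with replicate 3 as the source differed from 7561 by more than the SD of 1814. The score as deposited gave a step of -4.64, in other units than percentile points. The remaining ones moved the value by less than the SD between replicates. Among them were scores of at least 2 and a margin of 1 kb to regions. For the displaced level, they included displacement by 5 to 50 kb and leaving out chromosomes 8, 10, 16 and 17. The cause of these shifts was not tested beyond their construction, in which fewer libraries leave fewer regions and partners. Unknown read depth limits any statement on summits that were not called.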
